A study of Mus musculus with 12 samples.

Results

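Thbs1, Spon2, Fstl1, Nid1 and Itgb7 encode 4 secreted proteins of the extracellular matrix and 1 integrin subunit, and their RNA levels were followed in GC1 cells, an established mouse line of spermatogonial origin. The 5 genes were taken by symbol, and all 5 were found among the 2281 genes of the deposited table. RNA-seq was made of 4 groups of 3 libraries, all labelled 24 h. Ythdf2-koOE-setdb1 cells carry the Ythdf2 knockout and overexpress Setdb1, and Ythdf2-ko-OE-CTR cells carry the knockout and an overexpression control. Ythdf2-ko cells carry the knockout alone, and WT cells carry neither. The Ythdf2 protein recognises RNA that carries m6A, and the Setdb1 protein is an enzyme that methylates histone H3 at lysine 9. The labels give the same line code to all 3 knockout groups, and the effect of losing Ythdf2 cannot be told apart from other differences between that line and WT cells. The labels do not say whether the 3 libraries of a group came from separate cultures, so p-values measure the spread between these libraries, which may be technical. In these bulk samples, fewer cells that express a gene and less RNA per cell cannot be told apart.

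The 5 genes were chosen by their FPKM values in Ythdf2-ko and WT cells, and Thbs1 also by its values in Ythdf2-koOE-setdb1 and Ythdf2-ko-OE-CTR cells. Comparisons within those values are therefore given as descriptions, with no test. For Spon2, Fstl1, Nid1 and Itgb7 the Ythdf2-ko values also enter tests against Ythdf2-ko-OE-CTR cells, which the choice may affect. The table itself is a preselected set, since the authors marked all 2281 genes as significant without naming the comparison in the table's header. The q-values of the authors' deposited table were 1.82e-53 for Thbs1, 1.63e-39 for Spon2, 2.1e-24 for Fstl1, 9.23e-82 for Nid1 and 2.14e-82 for Itgb7. Levels are in FPKM, fragments counted per kilobase of transcript and corrected for the total mapped in a library, which allows genes to be compared per length. Changes are differences of log2(FPKM + 1), which makes changes of low genes look smaller than they are. They were tested with limma over all 12 libraries, with Benjamini-Hochberg adjustment over the 2063 genes that had at least 1 FPKM in at least 3 libraries. A gene is said to have risen or fallen where its adjusted p was under 0.05. Because the set was preselected, these adjusted p-values hold only within it and may be too small.

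The extracellular matrix is the network of secreted proteins around cells. Thrombospondin 1 (Thbs1) and spondin 2 (Spon2) are matricellular proteins, which act on cell behaviour more than they build fibres, and follistatin-like 1 (Fstl1) is a secreted glycoprotein that modulates signalling by the BMP and TGF-beta families. Nidogen 1 (Nid1) links the laminin and collagen IV networks of basement membranes, the sheets on which epithelia and the seminiferous tubule rest. Itgb7 encodes the integrin beta7 subunit, best known from lymphocytes, where it pairs with alpha4 or alphaE and binds MAdCAM-1, VCAM-1 or E-cadherin.

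The libraries differed in ways that bear on these genes. Ythdf2 itself averaged 4.63 ± 0.383 FPKM in Ythdf2-koOE-setdb1 cells, 6.14 ± 0.103 FPKM in Ythdf2-ko-OE-CTR cells, 6.05 ± 0.244 FPKM in Ythdf2-ko cells and 9.0 ± 0.43 FPKM in WT cells (SD, n = 3 each), so its RNA was lower but present under the knockout label. The sources used here do not say which part of the gene was deleted. Ythdf2-ko libraries 1 and 2 and WT libraries 2 and 3 carried blood transcripts, taken as a mean haemoglobin gene level of at least 10 FPKM. The other 8 libraries were below that level, and WT library 1 was the highest of them at 1.28 FPKM. Fits without the blood-carrying libraries keep only WT library 1 and Ythdf2-ko library 3 of those groups. The loss of a call there cannot be told apart from the loss of libraries. The 5 spermatogonial markers in the table, of 20 listed, were Itga6, Etv5, Cd9, Foxo1 and Bcl6b, all of which other cells also express, and the germ cell genes Ddx4, Dazl and Zbtb16 were not analysed here. The summed level of the 5 ranged from 71.3 to 78.6 FPKM in Ythdf2-koOE-setdb1 cells, from 82.9 to 86.4 FPKM in Ythdf2-ko-OE-CTR cells, from 75.2 to 77.7 FPKM in Ythdf2-ko cells and from 118 to 119 FPKM in WT cells. The 6 epithelial markers in the table, of 12 listed, summed to 330 to 343 FPKM in Ythdf2-koOE-setdb1 cells, 383 to 399 FPKM in Ythdf2-ko-OE-CTR cells, 348 to 357 FPKM in Ythdf2-ko cells and 838 to 871 FPKM in WT cells. Most of that sum was Krt19 and Krt14. Ovol1 and Esrp1 stood below 1 FPKM in every group and were not lower in Ythdf2-ko cells, with Ovol1 at 0.353 FPKM in Ythdf2-ko and 0.262 FPKM in WT cells and Esrp1 at 0.176 FPKM in Ythdf2-ko and 0.0895 FPKM in WT cells. Krt8 was higher in Ythdf2-koOE-setdb1 than in Ythdf2-ko-OE-CTR cells, where the sum was lower. The 4 fibroblast markers in the table, of 12 listed, summed to 285 to 293 FPKM in Ythdf2-koOE-setdb1 cells, 309 to 330 FPKM in Ythdf2-ko-OE-CTR cells, 302 to 320 FPKM in Ythdf2-ko cells and 227 to 248 FPKM in WT cells. Most of that sum was Fn1, which is itself one of the matrix genes below. Pdgfra was highest in WT cells, where the sum was lowest. It had 5.0 FPKM in Ythdf2-koOE-setdb1 cells, 5.66 FPKM in Ythdf2-ko-OE-CTR cells, 5.16 FPKM in Ythdf2-ko cells and 6.72 FPKM in WT cells. Pdgfrb was higher in Ythdf2-ko than in WT cells, as the sum was, at 0.211 and 0.0867 FPKM. The 3 markers of Sertoli, Leydig and peritubular cells in the table, of 11 listed, summed to 74.9 to 78.9 FPKM in Ythdf2-koOE-setdb1 cells, 71.6 to 72.8 FPKM in Ythdf2-ko-OE-CTR cells, 74.3 to 90.8 FPKM in Ythdf2-ko cells and 152 to 154 FPKM in WT cells, mostly Clu. The 3 endothelial markers in the table, of 7 listed, summed to 3.36 to 3.55 FPKM in Ythdf2-koOE-setdb1 cells, 2.25 to 2.44 FPKM in Ythdf2-ko-OE-CTR cells, 2.0 to 2.74 FPKM in Ythdf2-ko cells and 0.816 to 0.95 FPKM in WT cells. Most of that sum in the knockout groups was Tek, at 3.3 FPKM in Ythdf2-koOE-setdb1 and 0.415 FPKM in WT cells. Pecam1 (0.106 and 0.313 FPKM) and Vwf (0.0487 and 0.149 FPKM) were lower in Ythdf2-koOE-setdb1 than in WT cells. Gata4 of the Sertoli, Leydig and peritubular list (8.65 and 6.86 FPKM) and Foxo1 of the spermatogonial list (5.93 and 4.65 FPKM) were higher in Ythdf2-ko than in WT cells, against their sums. The part of these marker differences in the results below was not tested.

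Across all 12 libraries the 5 genes spanned a wide range of levels. Fstl1 averaged 146 FPKM and stood above 97.1% of the 2063 genes tested. Itgb7 averaged 22.5 FPKM, Thbs1 10.1 FPKM and Spon2 3.69 FPKM, above 72.0%, 47.1% and 18.1% of tested genes. Nid1 averaged 0.913 FPKM, above 1.41% of tested genes, and met the minimum level through the WT libraries alone, so a difference from WT was built into its being tested. The other 4 genes were above 1 FPKM in every library. The Thbs1 gene shares 208 exon bases with Gm29233 on the opposite strand, and Nid1 shares 143 with the antisense gene Gm48682, by the GENCODE M21 annotation. The sources used here do not say whether the libraries keep strand, so reads from these shared bases cannot be assigned to 1 gene of a pair. No such overlap was found for Spon2, Fstl1 or Itgb7.

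The promoters of Fstl1, Nid1 and Itgb7 are shown, as the RefSeq promoter table used here holds these 3 of the 5 genes, and they differ in the order of their levels over the 4 groups. Each line gives the 250 bases before the RefSeq start site on GRCm38.p6, 5′ to 3′ on the gene's strand, and capitals mark a GC box (GGGCGG) or a CCAAT box (CCAAT) on either strand. Fstl1 lies on the plus strand at chr16:37776805-37777054, Nid1 on the plus strand at chr13:13437352-13437601 and Itgb7 on the minus strand at chr15:102231936-102232185.
Fstl1: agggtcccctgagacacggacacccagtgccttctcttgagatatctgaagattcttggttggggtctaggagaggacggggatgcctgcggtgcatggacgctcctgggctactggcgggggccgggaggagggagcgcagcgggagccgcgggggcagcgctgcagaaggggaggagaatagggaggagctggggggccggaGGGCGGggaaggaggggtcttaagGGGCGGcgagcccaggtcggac
Nid1: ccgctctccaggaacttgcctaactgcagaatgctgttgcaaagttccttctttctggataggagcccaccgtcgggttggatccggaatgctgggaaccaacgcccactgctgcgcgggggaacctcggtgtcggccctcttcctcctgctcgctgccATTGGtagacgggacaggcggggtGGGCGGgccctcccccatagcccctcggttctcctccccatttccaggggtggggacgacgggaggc
Itgb7: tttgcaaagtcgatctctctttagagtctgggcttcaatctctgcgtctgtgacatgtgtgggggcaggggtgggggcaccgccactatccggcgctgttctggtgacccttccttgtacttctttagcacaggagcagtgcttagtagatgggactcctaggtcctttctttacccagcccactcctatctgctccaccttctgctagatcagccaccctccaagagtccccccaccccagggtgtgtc
The Fstl1 window held 2 GC boxes, and the Nid1 window held 1 GC box and 1 CCAAT box on the opposite strand. The Itgb7 window held neither of these, and none of the 3 held a TATA box (TATAAA). Over the 32851 promoter windows of the same length, 32.7% held a GC box, 33.8% a CCAAT box and 12.4% a TATA box. The windows had 68.0% GC and 16 CpG in Fstl1, 64.4% GC and 16 CpG in Nid1 and 56.0% GC and 5 CpG in Itgb7, against medians of 52.4% GC and 6 CpG over all windows.

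Thbs1 encodes a large secreted glycoprotein that binds CD47 and integrins and activates latent TGF-beta. It stood at 16.3, 16.4 and 15.8 FPKM in Ythdf2-koOE-setdb1 cells, at 9.4, 9.19 and 8.94 FPKM in Ythdf2-ko-OE-CTR cells, at 9.8, 10 and 10.1 FPKM in Ythdf2-ko cells and at 5.23, 5.26 and 5.4 FPKM in WT cells. No 2 groups overlapped, and the order was Ythdf2-koOE-setdb1, Ythdf2-ko, Ythdf2-ko-OE-CTR and WT from high to low. The Ythdf2-ko mean of 9.97 ± 0.155 FPKM was 1.88-fold the WT mean of 5.3 ± 0.0877 FPKM (SD, n = 3 each). The Ythdf2-koOE-setdb1 mean of 16.2 ± 0.336 FPKM was 1.76-fold the Ythdf2-ko-OE-CTR mean of 9.18 ± 0.231 FPKM, and 3.05-fold the WT mean. Thus the level with Setdb1 overexpression lay farther from WT than the knockout level did. Between Ythdf2-ko-OE-CTR and Ythdf2-ko cells Thbs1 differed by -0.11 on the log2 scale (SE 0.03). The difference was -0.12 to -0.09 in the fits that left out 1 library of these groups. It is given without a test, because the values of both groups were among those that chose Thbs1.

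**Figure D1:**
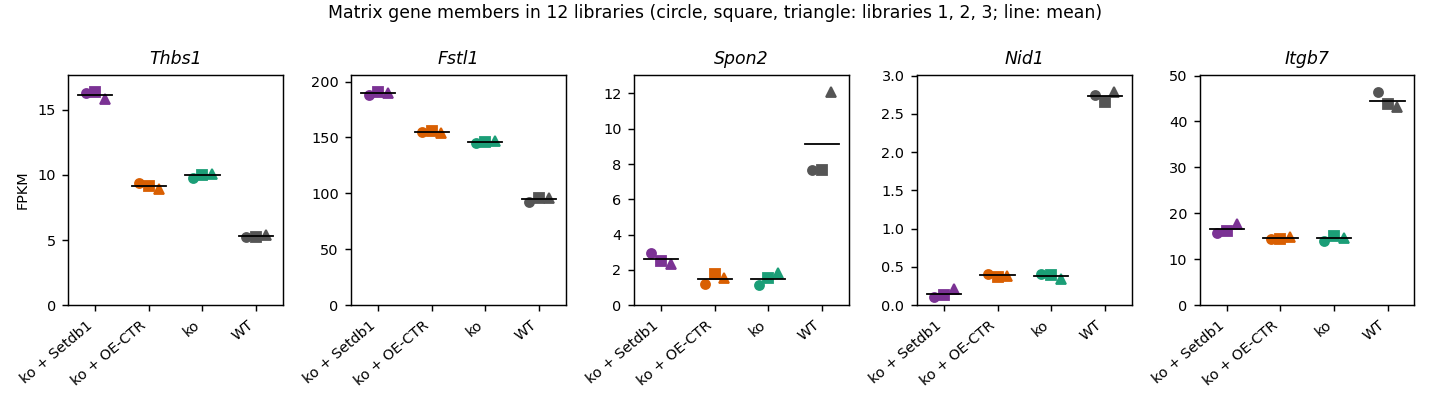
Level in FPKM (vertical axis, each panel with its own scale) of Thbs1, Fstl1, Spon2, Nid1 and Itgb7 in the 12 libraries, with groups from left to right Ythdf2-koOE-setdb1, Ythdf2-ko-OE-CTR, Ythdf2-ko and WT. Circle, square and triangle are libraries 1, 2 and 3 and the line is the group mean; Thbs1 and Fstl1 are lowest in WT, where Spon2, Nid1 and Itgb7 are highest.

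Thrombospondin 1 is a major protein of platelet granules, so platelet transcripts were read beside it. The 3 platelet markers in the table (Pf4, Itga2b and Gp9, of 11 listed) summed to 1.38, 1.57 and 1.28 FPKM in Ythdf2-koOE-setdb1 cells, 1.66, 1.5 and 1.66 FPKM in Ythdf2-ko-OE-CTR cells, 11.3, 7.96 and 1.77 FPKM in Ythdf2-ko cells and 1.58, 10.8 and 9.47 FPKM in WT cells. The 4 libraries with blood transcripts were thus the 4 with high platelet markers. In Ythdf2-ko cells it was at 9.8 and 10 FPKM in libraries 1 and 2, which carry blood transcripts, and at 10.1 FPKM in library 3, which does not. In WT cells it was at 5.26 and 5.4 FPKM in libraries 2 and 3, which carry them, and at 5.23 FPKM in library 1. The part of platelet RNA in the Thbs1 level was not tested.

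**Figure D2:**
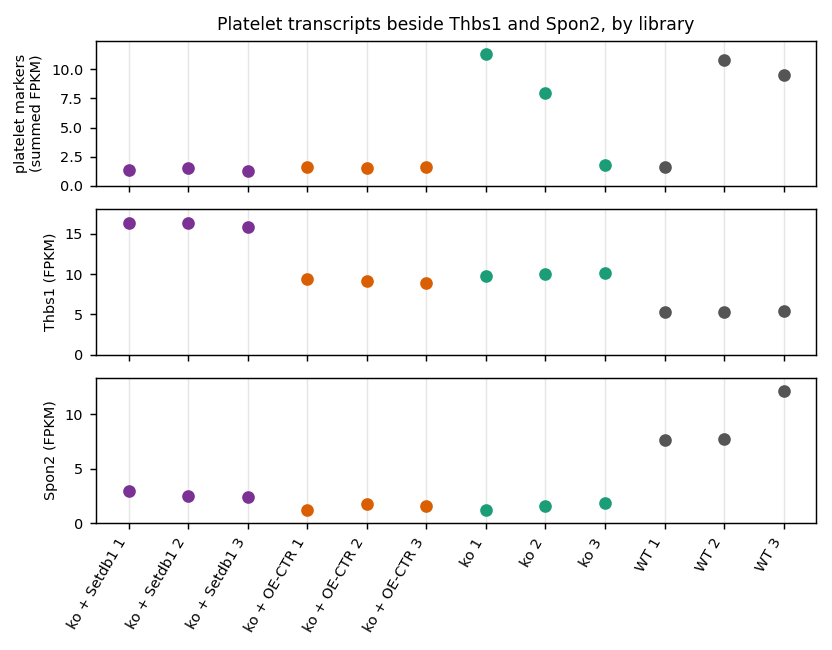
Summed level of 3 platelet markers, level of Thbs1 and level of Spon2 (vertical axes, FPKM) in each of the 12 libraries, with the groups from left to right Ythdf2-koOE-setdb1, Ythdf2-ko-OE-CTR, Ythdf2-ko and WT. The platelet markers stand at 7.96 to 11.3 FPKM in Ythdf2-ko libraries 1 and 2 and WT libraries 2 and 3 and at 1.28 to 1.77 FPKM in the other 8, while Thbs1 differs by group and little within one.

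Spon2 encodes spondin 2, also called mindin, a secreted protein of the spondin family that supports the recognition of microbes and the adhesion of leukocytes. It stood at 2.96, 2.52 and 2.35 FPKM in Ythdf2-koOE-setdb1 cells, at 1.19, 1.75 and 1.55 FPKM in Ythdf2-ko-OE-CTR cells, at 1.16, 1.55 and 1.8 FPKM in Ythdf2-ko cells and at 7.65, 7.68 and 12.1 FPKM in WT cells. Ythdf2-ko-OE-CTR and Ythdf2-ko cells overlapped, and every other pair of groups was separate, with WT highest and Ythdf2-koOE-setdb1 second. WT library 3 stood apart from the other WT libraries. The Ythdf2-ko mean of 1.5 ± 0.322 FPKM was 0.164 of the WT mean of 9.14 ± 2.55 FPKM (SD, n = 3 each), a difference of -2.0 on the log2 scale. It was -1.63 without the libraries that carried blood transcripts, which leaves Ythdf2-ko library 3 and WT library 1.

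With Setdb1 overexpression Spon2 rose to 2.61 ± 0.314 FPKM, against 1.5 ± 0.283 FPKM in Ythdf2-ko-OE-CTR cells, by 0.53 on the log2 scale (SE 0.16, limma adjusted p = 0.0143). Even so its mean was 0.285 of the WT mean. The call was lost without Ythdf2-koOE-setdb1 library 1 (0.47, adjusted p = 0.0521) and without Ythdf2-ko-OE-CTR library 1 (0.44, adjusted p = 0.0556). Between Ythdf2-ko-OE-CTR and Ythdf2-ko cells Spon2 differed by 0.00 on the log2 scale (95% interval -0.36 to 0.36, limma adjusted p = 0.999), so a shift of up to about that size could not be seen.

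Fstl1 was the most abundant of the 5. It stood at 188, 191 and 190 FPKM in Ythdf2-koOE-setdb1 cells, at 155, 156 and 154 FPKM in Ythdf2-ko-OE-CTR cells, at 145, 146 and 147 FPKM in Ythdf2-ko cells and at 92.6, 95.6 and 96.0 FPKM in WT cells. No 2 groups overlapped, and the levels ran downward in that order. The Ythdf2-ko mean of 146 ± 0.839 FPKM was 1.54-fold the WT mean of 94.7 ± 1.83 FPKM (SD, n = 3 each). With Setdb1 overexpression Fstl1 rose to 190 ± 1.55 FPKM, against 155 ± 0.823 FPKM in Ythdf2-ko-OE-CTR cells, by 0.29 on the log2 scale (SE 0.02, limma adjusted p = 1.85e-07), and its mean was then 2.0-fold the WT mean. It also rose between Ythdf2-ko-OE-CTR and Ythdf2-ko cells, by 0.08 (SE 0.02, limma adjusted p = 0.0148). This test uses the Ythdf2-ko values that helped to choose Fstl1. That small rise was 0.02 after quantile normalization (adjusted p = 0.562), and its call was lost without Ythdf2-ko-OE-CTR library 2 or Ythdf2-ko library 1, with adjusted p up to 0.0559.

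Nid1 was the least abundant. It stood at 0.106, 0.136 and 0.211 FPKM in Ythdf2-koOE-setdb1 cells, at 0.41, 0.369 and 0.388 FPKM in Ythdf2-ko-OE-CTR cells, at 0.404, 0.389 and 0.342 FPKM in Ythdf2-ko cells and at 2.74, 2.66 and 2.79 FPKM in WT cells. All 9 knockout libraries were below every WT library, the Ythdf2-koOE-setdb1 libraries were below all others, and Ythdf2-ko-OE-CTR and Ythdf2-ko cells overlapped. The Ythdf2-ko mean of 0.378 ± 0.0325 FPKM was 0.138 of the WT mean of 2.73 ± 0.0649 FPKM (SD, n = 3 each). On the log2 scale that difference was -1.44 with a pseudocount of 1 and -2.57 with a pseudocount of 0.1.

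With Setdb1 overexpression Nid1 fell by 0.27 on the log2 scale (SE 0.04, limma adjusted p = 0.000247). It averaged 0.151 ± 0.0541 FPKM in Ythdf2-koOE-setdb1 cells and 0.389 ± 0.0206 FPKM in Ythdf2-ko-OE-CTR cells, a ratio of 0.387. Both means are below 1 FPKM, and the reads behind them are not known. Between Ythdf2-ko-OE-CTR and Ythdf2-ko cells Nid1 differed by 0.01 (95% interval -0.08 to 0.11, limma adjusted p = 0.916).

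Nid2, which encodes nidogen 2, the other nidogen of basement membranes, had the opposite order of levels. It stood at 3.63, 3.88 and 3.97 FPKM in Ythdf2-koOE-setdb1 cells, at 2.47, 2.27 and 2.43 FPKM in Ythdf2-ko-OE-CTR cells, at 2.55, 2.32 and 2.54 FPKM in Ythdf2-ko cells and at 1.02, 0.967 and 0.987 FPKM in WT cells. Its log2 difference between Ythdf2-ko and WT cells was 0.80, and is given without a test because Nid2 met the minimum level through the knockout libraries, where it is high. It rose by 0.51 on the log2 scale in Ythdf2-koOE-setdb1 against Ythdf2-ko-OE-CTR cells (SE 0.04, limma adjusted p = 2.63e-06). The ratio of Nid2 to Nid1 was 34.4, 28.5 and 18.9 in Ythdf2-koOE-setdb1 libraries, 6.01, 6.15 and 6.26 in Ythdf2-ko-OE-CTR libraries, 6.32, 5.96 and 7.42 in Ythdf2-ko libraries and 0.37, 0.363 and 0.353 in WT libraries. Nidogen 1 transcripts were thus the more abundant in WT cells and nidogen 2 transcripts in all 9 knockout libraries.

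The sum of both nidogens varied far less than either gene. It was 3.74 to 4.18 FPKM in Ythdf2-koOE-setdb1 cells, 2.64 to 2.88 FPKM in Ythdf2-ko-OE-CTR cells, 2.71 to 2.96 FPKM in Ythdf2-ko cells and 3.63 to 3.78 FPKM in WT cells. Nid2 shares 437 exon bases with Rtraf on the opposite strand, and reads from those bases cannot be assigned to 1 of the genes either. Of the partners of nidogen 1 in the basement membrane, Col4a2, a collagen IV chain, averaged 99.6 ± 0.486 FPKM in Ythdf2-koOE-setdb1 cells, 92.5 ± 1.33 FPKM in Ythdf2-ko-OE-CTR cells, 93.9 ± 1.24 FPKM in Ythdf2-ko cells and 82.3 ± 1.41 FPKM in WT cells (SD, n = 3 each). It rose by 0.19 in Ythdf2-ko against WT cells (limma adjusted p = 5.17e-06) and by 0.11 with Setdb1 overexpression (limma adjusted p = 0.000453). Lamc1, Col4a1 and Hspg2 were not analysed here.

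**Figure D3:**
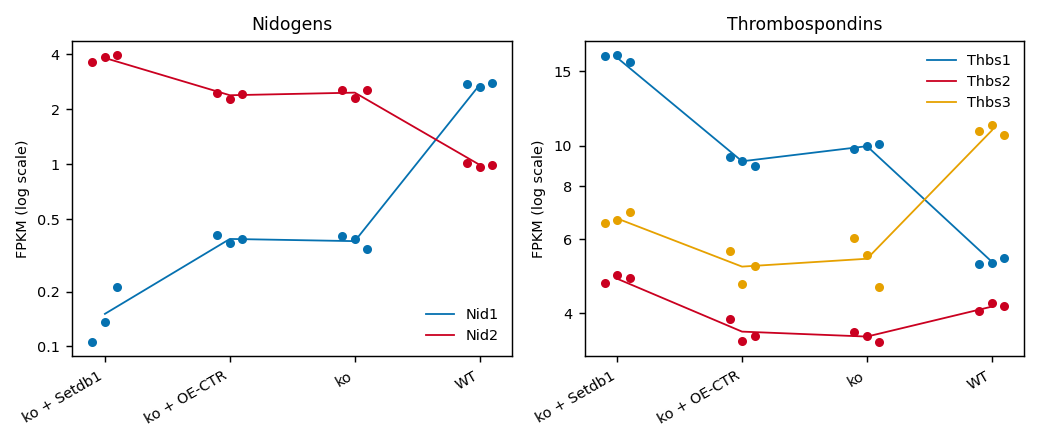
Level in FPKM (vertical axis, log scale) of the nidogen genes (left) and the thrombospondin genes (right) by library, with groups from left to right Ythdf2-koOE-setdb1, Ythdf2-ko-OE-CTR, Ythdf2-ko and WT; points are libraries and lines join the group means. Nid1 and Nid2 cross between the knockout groups and WT, with means of 0.378 and 2.47 FPKM in Ythdf2-ko cells and 2.73 and 0.99 FPKM in WT cells, as do Thbs1 and Thbs3, with 9.97 and 5.39 FPKM in Ythdf2-ko cells and 5.3 and 10.9 FPKM in WT cells.

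Itgb7 stood at 15.7, 16.2 and 17.6 FPKM in Ythdf2-koOE-setdb1 cells, at 14.4, 14.5 and 14.8 FPKM in Ythdf2-ko-OE-CTR cells, at 13.9, 15 and 14.7 FPKM in Ythdf2-ko cells and at 46.5, 43.8 and 43.1 FPKM in WT cells. All knockout libraries were below every WT library. The Ythdf2-koOE-setdb1 libraries were above the other knockout libraries, which overlapped each other. The Ythdf2-ko mean of 14.5 ± 0.574 FPKM was 0.327 of the WT mean of 44.5 ± 1.81 FPKM (SD, n = 3 each). With Setdb1 overexpression Itgb7 rose to 16.5 ± 1.01 FPKM, against 14.6 ± 0.185 FPKM in Ythdf2-ko-OE-CTR cells, by 0.17 on the log2 scale (SE 0.04, limma adjusted p = 0.00663), and reached 0.371 of the WT mean. Between Ythdf2-ko-OE-CTR and Ythdf2-ko cells it differed by 0.00 (95% interval -0.09 to 0.10, limma adjusted p = 0.97).

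Since beta7 integrins are known from lymphocytes, lymphocyte markers were read beside Itgb7. The 2 in the table (Ptprc and Itgal, of 13 listed) summed to 0.039 to 0.0548 FPKM in Ythdf2-koOE-setdb1 cells, 0.0499 to 0.11 FPKM in Ythdf2-ko-OE-CTR cells, 0.0648 to 0.446 FPKM in Ythdf2-ko cells and 0.0291 to 0.463 FPKM in WT cells. These sums were below 1 FPKM in all 12 libraries and highest in the libraries that carried blood transcripts. Ythdf2-ko libraries 1, 2 and 3 had 0.446, 0.404 and 0.0648 FPKM, and WT libraries 1, 2 and 3 had 0.0291, 0.463 and 0.406 FPKM. The part of lymphocyte RNA in the Itgb7 level was not tested. The alpha subunits that pair with beta7, Itga4 and Itgae, and the ligands Madcam1 and Cdh1 were not analysed here. The ligand Vcam1 averaged 4.27 ± 0.132 FPKM in Ythdf2-koOE-setdb1 cells, 2.82 ± 0.0719 FPKM in Ythdf2-ko-OE-CTR cells, 2.99 ± 0.157 FPKM in Ythdf2-ko cells and 3.9 ± 0.198 FPKM in WT cells (SD, n = 3 each). On the log2 scale it fell by 0.30 in Ythdf2-ko against WT cells (limma adjusted p = 8.69e-05) and rose by 0.46 in Ythdf2-koOE-setdb1 against Ythdf2-ko-OE-CTR cells (limma adjusted p = 5.19e-06).

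Itgb2, the beta subunit of the leukocyte integrins and a close relative of Itgb7, was also higher in WT cells. It stood at 2.67, 2.22 and 2.4 FPKM in Ythdf2-koOE-setdb1 cells, at 2.72, 2.17 and 2.44 FPKM in Ythdf2-ko-OE-CTR cells, at 3.51, 3.45 and 2.89 FPKM in Ythdf2-ko cells and at 10.5, 11.3 and 11 FPKM in WT cells. On the log2 scale it fell by 1.48 in Ythdf2-ko against WT cells (SE 0.08, limma adjusted p = 5.11e-08). WT library 1, with a mean haemoglobin gene level of 1.28 FPKM, was the lowest of the 3 WT libraries and above every knockout library. The part of leukocyte RNA in the Itgb2 level was not tested. Setdb1 overexpression against its control gave 0.00 for Itgb2 (limma adjusted p = 0.963). In Ythdf2-ko-OE-CTR against Ythdf2-ko cells it fell by 0.32 (limma adjusted p = 0.0308), a call that was lost in the fit without Ythdf2-ko library 1 (-0.28, adjusted p = 0.101). The change was -0.18 without the libraries that carried blood transcripts, which leaves Ythdf2-ko library 3 alone in its group.

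The related thrombospondins had other orders of levels than Thbs1. Thbs2, which encodes a close relative with the same trimeric structure, averaged 4.83 ± 0.0991 FPKM in Ythdf2-koOE-setdb1 cells, 3.62 ± 0.233 FPKM in Ythdf2-ko-OE-CTR cells, 3.52 ± 0.0985 FPKM in Ythdf2-ko cells and 4.15 ± 0.0966 FPKM in WT cells (SD, n = 3 each). On the log2 scale it fell by 0.19 in Ythdf2-ko against WT cells (limma adjusted p = 0.00143). The change was also -0.19 without the libraries that carried blood transcripts, which leaves Ythdf2-ko library 3 and WT library 1. Thbs3, of the pentameric thrombospondins, averaged 6.71 ± 0.208 FPKM in Ythdf2-koOE-setdb1 cells, 5.16 ± 0.454 FPKM in Ythdf2-ko-OE-CTR cells, 5.39 ± 0.722 FPKM in Ythdf2-ko cells and 10.9 ± 0.296 FPKM in WT cells, and fell by 0.90 in Ythdf2-ko against WT cells (SE 0.08, limma adjusted p = 2.29e-06). Thus Thbs2 and Thbs3 fell where the Thbs1 level was higher. With Setdb1 overexpression Thbs2 rose by 0.34 (SE 0.04, limma adjusted p = 3.53e-05) and Thbs3 by 0.33 (SE 0.08, limma adjusted p = 0.00353), the direction in which Thbs1 also lay.

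Of the receptors of thrombospondin 1 in the table, Cd47 and Itgb3 gave uneven values. Cd47, the receptor that also signals to macrophages, stood at 28.9, 27.0 and 26.3 FPKM in Ythdf2-koOE-setdb1 cells, 32.3, 18.4 and 31.8 FPKM in Ythdf2-ko-OE-CTR cells, 15.4, 23.4 and 15.5 FPKM in Ythdf2-ko cells and 34.3, 33.5 and 21.3 FPKM in WT cells. On the log2 scale it fell by 0.68 in Ythdf2-ko against WT cells (SE 0.24, limma adjusted p = 0.0255), but single libraries stood apart in 3 groups and the call was lost when WT library 1 or 2 or Ythdf2-ko library 1 or 3 was left out (-0.59 to -0.57, adjusted p 0.0811 to 0.0868). Itgb3, the beta subunit of the vitronectin and platelet integrins, was as uneven, with 8.99, 8.57 and 8.23 FPKM in Ythdf2-koOE-setdb1 cells, 5.25, 5.13 and 9.68 FPKM in Ythdf2-ko-OE-CTR cells, 5.54, 9.81 and 5.1 FPKM in Ythdf2-ko cells and 6.34, 13.3 and 12.6 FPKM in WT cells, and passed the test in no comparison. Lrp1, an endocytic receptor that clears thrombospondins, averaged 32.2 FPKM in Ythdf2-koOE-setdb1 cells, 34.3 FPKM in Ythdf2-ko-OE-CTR cells, 34.8 FPKM in Ythdf2-ko cells and 41.7 FPKM in WT cells, and fell by 0.26 in Ythdf2-ko against WT cells (limma adjusted p = 2.49e-05). Cd36, Itgav and Itgb1 were not analysed here.

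Spon1, the other spondin, averaged 0.563 FPKM in Ythdf2-koOE-setdb1 cells, 0.48 FPKM in Ythdf2-ko-OE-CTR cells, 0.433 FPKM in Ythdf2-ko cells and 0.665 FPKM in WT cells, too low to be tested. Fstl3, a secreted inhibitor of activins, averaged 9.19 ± 0.276 FPKM in Ythdf2-koOE-setdb1 cells, 11.5 ± 0.336 FPKM in Ythdf2-ko-OE-CTR cells, 9.95 ± 1.1 FPKM in Ythdf2-ko cells and 8.62 ± 0.705 FPKM in WT cells (SD, n = 3 each). On the log2 scale it fell by 0.29 with Setdb1 overexpression (limma adjusted p = 0.00417), where Fstl1 rose. Its difference of 0.18 between Ythdf2-ko and WT cells (limma adjusted p = 0.0364) was -0.10 without the libraries that carried blood transcripts, which leaves Ythdf2-ko library 3 and WT library 1. The call was lost without WT library 2 (0.14, adjusted p = 0.127), WT library 3 (0.17, adjusted p = 0.0919), Ythdf2-ko library 1 (0.16, adjusted p = 0.103) or Ythdf2-ko library 2 (0.12, adjusted p = 0.141).

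The wider matrix and adhesion programme was read from 6 lists of 223 genes in all, of which 77 were in the table and 59 were tested. Counts below leave out the 5 genes described above, which leaves 54 tested. In Ythdf2-ko against WT cells 77.3% of all 2063 genes passed the test, 37.8% higher and 39.5% lower, with a median log2 change of -0.01. Of the 54 list genes 28 rose and 20 fell, which is 88.9%, and their median change was 0.10. Of these 54, Nid2, Ccn3 and Mgp met the minimum level through the groups where they are high, so their difference from WT was built in, and the other 51 were above it in every library.

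Of 8 tested basement membrane genes 6 rose and 2 fell in Ythdf2-ko against WT cells, with a median log2 change of 0.22. Agrn, which encodes agrin, a heparan sulphate proteoglycan, rose by 0.52 (SE 0.02, limma adjusted p = 6.57e-09), and Lamb3, the laminin beta3 chain of epithelia, fell by 0.80 to 1.15 FPKM in Ythdf2-ko cells, against 2.75 FPKM in WT cells (SE 0.06, limma adjusted p = 1.26e-06). Npnt, which encodes nephronectin, was called lower by 0.58 (limma adjusted p = 0.00526). It gave -0.10 without the libraries that carried blood transcripts, which leaves Ythdf2-ko library 3 and WT library 1. Of 17 tested collagen and fibre genes 12 rose and 3 fell (median 0.31).

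Col12a1, a collagen that coats fibrils, rose by 0.92 to 5.5 ± 0.0979 FPKM in Ythdf2-ko cells, against 2.44 ± 0.0261 FPKM in WT cells (SD, n = 3 each; SE 0.03, limma adjusted p = 2.64e-09). Fn1, which encodes fibronectin, rose by 0.42 to 305 ± 8.95 FPKM in Ythdf2-ko cells, against 228 ± 11.3 FPKM in WT cells (limma adjusted p = 3.35e-06). Lox, the enzyme that cross-links collagen and elastin, rose by 0.36 to 71.6 ± 0.659 FPKM in Ythdf2-ko cells, against 55.4 ± 1.14 FPKM in WT cells (limma adjusted p = 6.25e-08). Fibulin 1 (Fbln1) and the collagen VI chain Col6a1 were among the 3 that fell, by 0.31 and 0.23.

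Of 11 tested matricellular and secreted genes 4 rose and 7 fell in that comparison, with a median log2 change of -0.27. The changes of Thbs2 and Tnc among the 7 were -0.19 and -0.25 when the blood-carrying libraries were left out, which leaves Ythdf2-ko library 3 and WT library 1. Mgp, which encodes an inhibitor of calcification, averaged 0.598 ± 0.107 FPKM in Ythdf2-ko cells and 2.56 ± 0.18 FPKM in WT cells (SD, n = 3 each), and was tested through its WT libraries alone. Ccn2, the connective tissue growth factor, rose by 0.41 to 136 ± 2.53 FPKM in Ythdf2-ko cells, against 102 ± 0.964 FPKM in WT cells (SE 0.02, limma adjusted p = 1.64e-08). Of 9 tested integrin subunits 2 rose (Itga7 by 0.40 and Itga5 by 0.14) and 4 fell (Itgb2 by 1.48, Itga3 by 0.45, Itga6 by 0.36 and Itgb4 by 0.24). Of 3 proteoglycan genes 1 rose and 1 fell, and of 6 other receptors 3 rose and 3 fell. No share of a list was tested against that of the table.

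**Figure D4:**
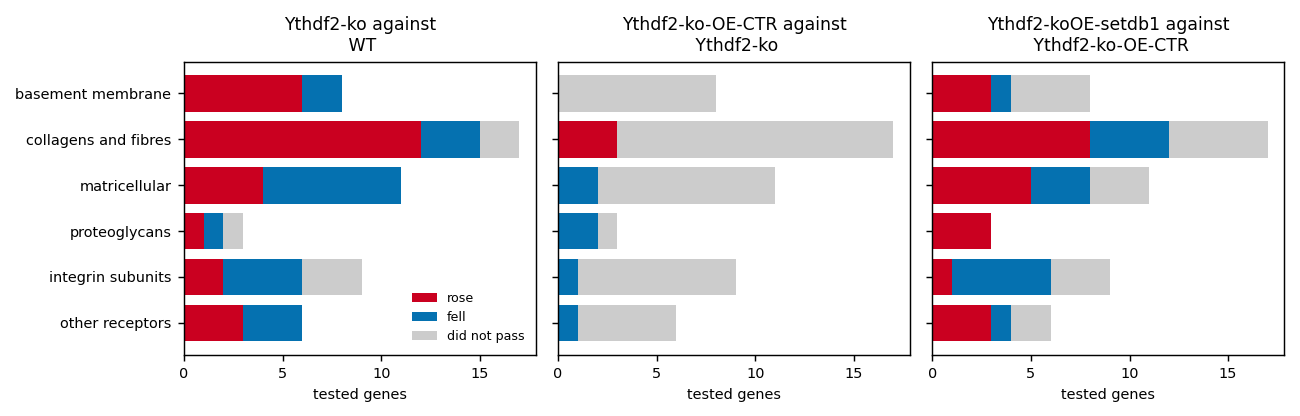
Number of tested genes (horizontal axis, stacked bars) that rose, fell or did not pass the test in each of the 6 lists, without the 5 genes described above, for the comparisons Ythdf2-ko against WT, Ythdf2-ko-OE-CTR against Ythdf2-ko and Ythdf2-koOE-setdb1 against Ythdf2-ko-OE-CTR. Called were 48 of 54 genes in Ythdf2-ko against WT, 9 in Ythdf2-ko-OE-CTR against Ythdf2-ko and 37 in Ythdf2-koOE-setdb1 against Ythdf2-ko-OE-CTR.

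Between Ythdf2-ko-OE-CTR and Ythdf2-ko cells 8.68% of all tested genes passed, 3.64% higher and 5.04% lower, with a median log2 change of 0.00. These 179 genes became 93 when Ythdf2-ko-OE-CTR library 2 was left out, 96 without Ythdf2-ko library 1 and 106 without Ythdf2-ko library 2. They became 117 without Ythdf2-ko-OE-CTR library 3 and 119 without Ythdf2-ko-OE-CTR library 1. Of the 179 calls 75 were higher and 104 lower, against 95 and 91 with median-of-ratios scaling and 87 and 78 with quantile normalization. Of the 5 genes described above Fstl1 rose by little, with a call that single libraries decided, and Spon2, Nid1 and Itgb7 did not pass. Thbs1 was described above without a test. Of the 54 list genes 3 rose and 6 fell, 16.7% in all. Lox rose by 0.24 (limma adjusted p = 4.25e-05). Ccn1, which encodes a CCN family matricellular protein, fell by 0.32 (limma adjusted p = 5.86e-06). It averaged 158 ± 3.08 FPKM in Ythdf2-ko-OE-CTR cells, against 197 ± 3.68 FPKM in Ythdf2-ko cells. Ccn2 fell by 0.15 (limma adjusted p = 0.000815), and gave -0.13 with the blood-carrying libraries left out.

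In Ythdf2-koOE-setdb1 against Ythdf2-ko-OE-CTR cells 67.9% of all tested genes passed, 36.1% higher and 31.8% lower, with a median log2 change of 0.02. Of the 4 genes that could be tested there, Spon2, Fstl1 and Itgb7 rose and Nid1 fell. Of the 54 list genes 23 rose and 14 fell, which is 68.5% and close to the share of the whole table, and their median change was 0.08. Of 8 basement membrane genes 3 rose (Nid2, Lamb1 and Col4a2) and 1 fell (Lamb3), and of 17 fibre genes 8 rose and 4 fell. The fall of Lamb3, by 0.18 (limma adjusted p = 0.0301), was lost without Ythdf2-ko-OE-CTR library 2 or 3 or Ythdf2-koOE-setdb1 library 1 or 2 (adjusted p 0.074 to 0.0954).

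Among fibre genes, Col8a1, a short-chain collagen, rose by 0.45 to 12.7 ± 0.42 FPKM in Ythdf2-koOE-setdb1 cells, against 9.02 ± 0.0886 FPKM in Ythdf2-ko-OE-CTR cells (limma adjusted p = 1.4e-06), and Fbln1 rose by 0.38 to 26.0 ± 0.824 FPKM in Ythdf2-koOE-setdb1 cells, against 19.8 ± 0.432 FPKM in Ythdf2-ko-OE-CTR cells (limma adjusted p = 1.36e-06). P4ha2, a collagen prolyl hydroxylase subunit, fell by 0.37 (limma adjusted p = 4.62e-07), and Fn1 fell by 0.15 (limma adjusted p = 0.00413). Of 11 matricellular genes 5 rose and 3 fell. Ccn2 rose by 0.63 to 190 ± 1.17 FPKM in Ythdf2-koOE-setdb1 cells, against 122 ± 1.73 FPKM in Ythdf2-ko-OE-CTR cells (SE 0.02, limma adjusted p = 8.77e-10), and Ccn1 rose by 0.30 to 194 ± 0.892 FPKM in Ythdf2-koOE-setdb1 cells, against 158 ± 3.08 FPKM in Ythdf2-ko-OE-CTR cells (limma adjusted p = 4.62e-07), where Ythdf2-ko cells without the control had 197 ± 3.68 FPKM.

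The 3 proteoglycan genes tested all rose with Setdb1 overexpression. Sdc4, a syndecan of focal adhesions, rose by 0.45 to 163 ± 3.6 FPKM in Ythdf2-koOE-setdb1 cells, against 119 ± 2.38 FPKM in Ythdf2-ko-OE-CTR cells (limma adjusted p = 5.44e-08), and the hyaluronan receptor gene Cd44 rose by 0.41 (limma adjusted p = 0.00367). Cd44 averaged 32.3 FPKM in Ythdf2-koOE-setdb1 cells, 24.0 FPKM in Ythdf2-ko-OE-CTR cells, 32.5 FPKM in Ythdf2-ko cells and 33.3 FPKM in WT cells, so the Ythdf2-ko-OE-CTR group was the one that stood apart. Of the 9 integrin subunits, counted without Itgb7, 1 rose and 5 fell, all by 0.23 or less on the log2 scale. The 1 that rose, Itga7, did so by 0.06 (limma adjusted p = 0.0208) and lost its call when Ythdf2-koOE-setdb1 library 1 or Ythdf2-ko-OE-CTR library 1 or 2 was left out (adjusted p 0.0575 to 0.0816). Itgb5 fell by 0.23 (limma adjusted p = 0.000274).

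The comparisons of Ythdf2-ko with WT and of Ythdf2-koOE-setdb1 with Ythdf2-ko-OE-CTR share no library, so their calls were set side by side for the 54 list genes. Both comparisons gave a rise for 14 genes (25.9%, against 14.0% of all 2063 tested genes) and a fall for 7 (13.0%, against 12.5%). A rise in Ythdf2-ko with a fall under Setdb1 overexpression was seen in 6 (11.1%, against 11.2%), and a fall with a rise in 7 (13.0%, against 13.3%), namely Col6a1, Fbln1, Mgp, Sdc4, Thbs2, Thbs3 and Vcam1. The 14 include Nid2, and the 7 just named include Mgp, whose differences from WT were built in. Some alternative fits ended a call of Loxl2, Bcam, Col12a1 or Itga7 among the 14. They also ended a call of Itgb4, Lamb3, Lrp1 or Tnc among the 7 that fell in both, and of Fstl3 or Thbs2 among the others. For Bcam and Thbs2 that was the fit without the blood-carrying libraries, which leaves Ythdf2-ko library 3 and WT library 1. No test of these differences in share was made. In these terms Thbs1 and Fstl1 lay on the higher side in both, Nid1 on the lower side in both, and Spon2 and Itgb7 on the lower side in Ythdf2-ko and the higher side with Setdb1. Relative to WT, therefore, the levels of Thbs1, Fstl1 and Nid1 were farther away in Ythdf2-koOE-setdb1 than in Ythdf2-ko-OE-CTR cells, and those of Spon2 and Itgb7 were nearer but had not reached it.

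**Figure D5:**
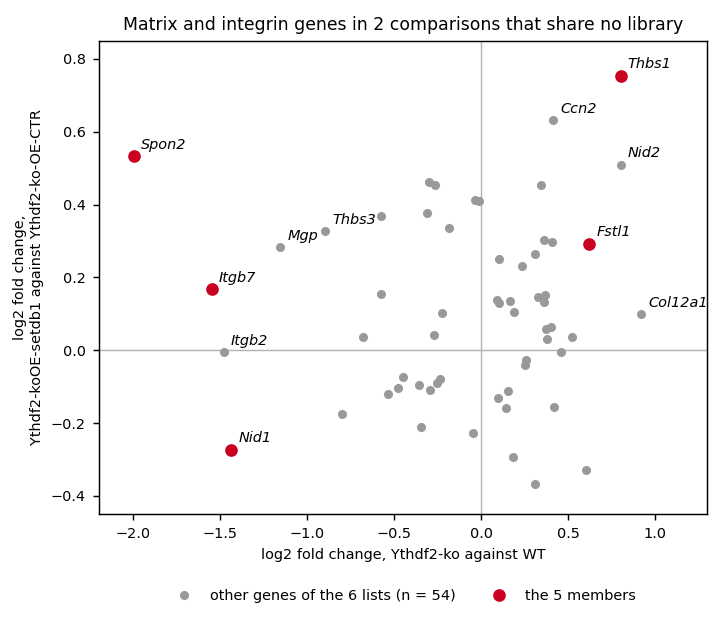
Log2 fold change in Ythdf2-ko against WT (horizontal axis) and in Ythdf2-koOE-setdb1 against Ythdf2-ko-OE-CTR (vertical axis), on the log2(FPKM + 1) scale, for the 59 tested list genes, with Thbs1, Spon2, Fstl1, Nid1 and Itgb7 in red. Thbs1 lies at 0.80 and 0.75, Fstl1 at 0.62 and 0.29, Nid1 at -1.44 and -0.27, Spon2 at -2.0 and 0.53 and Itgb7 at -1.55 and 0.17.

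The genes whose levels followed each of the 5 most closely were found by the root mean square difference of centred log2(FPKM + 1) over the 12 libraries, as a description. For Thbs1, whose own spread on that scale was 0.51, they were Nid2 (0.10), Irf7 (0.12), an interferon regulatory factor, and Csrp2 (0.12), a LIM domain protein. Nid2 is the nidogen described above, and the closest gene to Thbs1 was thus the relative of Nid1 that ran opposite to it. Irf7 averaged 9.32 FPKM in Ythdf2-koOE-setdb1 cells, 6.09 FPKM in Ythdf2-ko-OE-CTR cells, 5.89 FPKM in Ythdf2-ko cells and 2.75 FPKM in WT cells. For Fstl1, with a spread of 0.36, they included Dcxr (0.06), a carbonyl reductase, and Ccng1 (0.07), cyclin G1. Ccng1 averaged 155 FPKM in Ythdf2-koOE-setdb1 cells, 110 FPKM in Ythdf2-ko-OE-CTR cells, 110 FPKM in Ythdf2-ko cells and 72.1 FPKM in WT cells.

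For Spon2, with a spread of 0.84, they were Olr1 (0.20), an oxidised lipoprotein receptor, Eya2 (0.21), a transcriptional coactivator, and Krt8 (0.21), keratin 8. Krt8 averaged 2.42 FPKM in Ythdf2-koOE-setdb1 cells, 1.35 FPKM in Ythdf2-ko-OE-CTR cells, 1.34 FPKM in Ythdf2-ko cells and 6.69 FPKM in WT cells. For Nid1, with a spread of 0.67, they were Krt19 (0.13), keratin 19, Elf3 (0.14), an epithelial transcription factor, and Nedd9 (0.15), a scaffold protein of focal adhesions. Krt19 averaged 262 FPKM in Ythdf2-koOE-setdb1 cells, 307 FPKM in Ythdf2-ko-OE-CTR cells, 274 FPKM in Ythdf2-ko cells and 692 FPKM in WT cells, and Krt8, Krt19 and Elf3 are among the epithelial markers whose sum was given above. For Itgb7, with a spread of 0.65, they were Rbp4 (0.12), the retinol carrier, Nedd9 (0.13) and Mbnl3 (0.15), a splicing regulator. Rbp4 averaged 28.9 FPKM in Ythdf2-koOE-setdb1 cells, 29.7 FPKM in Ythdf2-ko-OE-CTR cells, 27.0 FPKM in Ythdf2-ko cells and 90.7 FPKM in WT cells.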

How the data were processed

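RNA-seq of 12 libraries gave 1 deposited table of FPKM values, made by the authors with cutadapt, HISAT2, StringTie, edgeR and DESeq2 as named, without versions, per the submitters' processing notes. Total RNA was extracted with a phenol reagent, per the labels' protocols. The sources used here name no build or annotation. The authors' deposited table also holds 1 p-value and 1 q-value per gene; all 2281 genes were marked significant, so shares of changed genes describe this set. Depth is unknown, since no counts were used. All 2281 gene IDs matched GENCODE M21 symbols, and promoters are RefSeq's. Values were analysed as log2(FPKM + 1) with limma 3.58.1 in R 4.3.3 (limma-trend, 1 mean per group, two-sided, Benjamini-Hochberg over 2063 genes). The fit was also run on simulated data in which most genes were left unchanged, unlike in Ythdf2-ko against WT cells. That run does not show how reliable the calls here are. With 3 libraries a group, an exact permutation test could not go below p = 0.1 and was not used. Genes were named by role, by size of change within 6 lists, or by likeness of level; 1 gene named by likeness is not reported here. The 5 genes, the lists and the tests were chosen with earlier results of these data known. The design assumed a whole-transcriptome table and was kept. Alternatives varied the pseudocount, filter, scaling, libraries and model terms.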

Additional observations from a re-analysis of the deposited data

How the results depend on the processing

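No called change of the 5 genes turned direction under the alternatives run. In Ythdf2-ko-OE-CTR against Ythdf2-ko cells the uncalled changes of Spon2 (-0.17 to 0.09), Nid1 (-0.01 to 0.26) and Itgb7 (-0.04 to 0.03) took both signs. Fstl3 turned in Ythdf2-ko against WT cells in the fit without the blood-carrying libraries, as given above. In that comparison 779 higher and 815 lower calls became 806 and 794 with median-of-ratios scaling. In Ythdf2-ko-OE-CTR against Ythdf2-ko cells the 179 genes called became 106 with the 2 groups alone, 41 without the libraries that carry blood transcripts, 66 with a term for them and 93 to 128 leaving out 1 library, and the list count of 9 (3 higher, 6 lower) became 3 (2 higher, 1 lower) without those libraries and 5 with the term (6 to 10 leaving out 1 library). The share of these calls that were higher was 41.9% as deposited, 51.1% with median-of-ratios scaling and 52.7% with quantile normalization. Thbs1, given there as a description, differed by -0.11 with the replicate block, with the 2 groups alone and with a term for the blood-carrying libraries. Its difference was -0.13 without those libraries and -0.12 to -0.09 leaving out 1 library. Fstl1 in the same comparison lost its call with quantile normalization (0.02, limma adjusted p = 0.562) and in some fits that left out 1 library (0.08 to 0.09, adjusted p 0.0292 to 0.0559). It gave 0.07 without the blood-carrying libraries, which leaves Ythdf2-ko library 3 alone in its group. Spon2 with Setdb1 overexpression gave 0.44 to 0.61 leaving out 1 library (adjusted p 0.0176 to 0.0556). The causes were not tested. Counts for the other comparisons kept within 1.5 times, with 1526 to 1552 genes for Ythdf2-ko against WT and 1305 to 1331 for Setdb1 overexpression leaving out 1 library. Same-numbered libraries deviated together, with a correlation over 0.1, in 1 of 18 pairs. Between WT and Ythdf2-ko cells the correlation was -0.70 for libraries 1, 0.41 for libraries 2 and -0.50 for libraries 3, where blood transcripts also differed. Whether the numbers pair the libraries cannot be decided from these values. The block ended no call given above for the 5 genes. Depth is unknown, which limits Nid1 most.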
